A study of Homo sapiens with 12 samples.

Results

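The comparison described here is QTP alone against vehicle in cells that were not irradiated, across every protein-coding gene whose mean over the 12 libraries of the series was at least 1 FPKM (a read level scaled to the length of the gene and to the library). That rule took 10751 of the 19951 protein-coding genes, in a table of 58735 genes of all kinds. The cells were MSTO-211H, a human cell line established from mesothelioma, grown in suspension in RPMI medium with SM1 supplement, EGF, bFGF and heparin, and the submitters call these cells mesothelioma-initiating. They were given vehicle or QTP, a compound known here only by that name, at 10 µM, then 4 Gy or a sham exposure on the following day, and RNA for sequencing was collected 48 h after that. Con had vehicle and sham exposure, and IR had vehicle and 4 Gy. The titles Rx and Combo are not spelled out in the labels. As the design has 4 arms, Rx was taken to be QTP without radiation and Combo to be QTP followed by 4 Gy. Each group had 3 libraries of this single cell line. Whether they came from separate cultures is not stated, so the errors and p-values cover the spread between libraries, which may be technical. The series title names dopamine receptor inhibition with radiotherapy, and Rx against Con asks what the compound did without radiation.

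Cells make cholesterol from acetyl-CoA through the mevalonate pathway and a chain of sterol-modifying enzymes in the endoplasmic reticulum. The genes of this chain are switched on by the transcription factors SREBF1 and SREBF2, which INSIG proteins hold in the endoplasmic reticulum when sterol is plentiful and which are cut and released when it is scarce. Other background needed here is the integrated stress response, in which phosphorylation of the initiation factor eIF2 lowers general translation and raises that of ATF4, and the lysosome, where internalised lipoprotein cholesterol is freed and passed out by NPC proteins.

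No protein-coding gene passed an adjusted p of 0.05 in Rx against Con (0 of 10751, 0%; limma with Benjamini-Hochberg adjustment over all 13038 genes tested), and the smallest adjusted p was 0.926. At an unadjusted p under 0.05 in the same test, 260 genes were higher in Rx (2.42%) and 60 were lower (0.558%), together 2.98% where the threshold itself allows 5%. Limma voom on the recovered reads also gave 0 genes at an adjusted p under 0.05, with 217 higher and 97 lower at an unadjusted p under 0.05. Every difference below is therefore given as a value, and no gene is called changed. A value written with ± after a log2 difference is its standard error from the limma fit, and each gene named has an adjusted p of at least 0.926. The split depended on the scaling: with FPKM rescaled to a fixed total per library (TPM), 63 genes were higher and 279 lower at an unadjusted p under 0.05, and the median difference of all genes moved from 0.01 to -0.08 on the log2 scale, with 2343 of the 10751 higher by mean. Counts of list members under TPM are to be read against that shift. With the replicate number as a block, 317 were higher and 101 lower. Leaving out 1 library gave 151 (without Rx 2) to 332 (without Con 1) higher. It gave 37 (without Con 2) to 121 (without Rx 3) lower. Counts of list members from such fits are to be read against these numbers, as the stated backgrounds are those of the main fit.

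Differences were small for most genes. The middle 90% of log2 differences (Rx minus Con, on the log2(FPKM + 1) scale) ran from -0.15 to 0.18, 31 genes were more than 0.5 higher and 4 more than 0.5 lower. By mean, 5716 genes were higher in Rx (53.2%) and 5035 lower (46.8%). All 3 Rx values lay above all 3 Con values for 523 genes (4.86%) and below them for 292 (2.72%). Between libraries of the same number, 1578 genes were higher in Rx in all 3 pairs (14.7%) and 1274 were lower in all 3 (11.9%).

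The 6 libraries did not sit apart by treatment alone. The reads recovered per library were 13188257 to 18542055, with 15216794 ± 1757178 in Con and 17253387 ± 2019535 in Rx (SD, n = 3). On the first principal component of the 6 libraries, with 38.5% of the variance, Rx 2 lay at one end (-12.9) and Con 3 at the other (13.1), and Con 1 (-7.54) lay below Rx 1 (-3.05) and Rx 3 (8.24). Mitochondrial genes took 6.74%, 7.41% and 9.22% of reads in Con 1 to 3, and 8.87%, 8.59% and 9.78% in Rx 1 to 3. Shorter genes tended to be higher in Rx, with a median log2 difference of 0.03 in the shortest of 4 equal classes by length and -0.02 in the longest, and 3.98% and 0.967% of genes higher at an unadjusted p under 0.05. Whether depth, RNA quality or length had a part in the differences below was not tested. Because Rx 2 held the largest values of many genes, results are given with and without it for some of the lists. They are not given so for every list or for counts pooled over lists.

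Genes of the mevalonate pathway, which builds the isoprenoid units of cholesterol, were higher with QTP. All 9 listed genes passed the filter, 8 were higher in Rx, 8 were higher at an unadjusted p under 0.05 (background 2.42%) and 5 had groups that did not overlap (background 4.86%). Their median log2 difference was 0.63, beside 0.01 over all genes tested, and 0.39 without Rx 2, when 9 were higher and 5 kept an unadjusted p under 0.05. By numbered pair the median was 0.27, 0.84 and 0.68, so the pair with Rx 2 was highest and pair 1 lowest.

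HMGCS1 (ENSG00000112972, chr5:43289395-43313512, hg38), the synthase that makes HMG-CoA, was at 21.6, 25.6 and 16.2 FPKM in Con 1 to 3 and at 25.2, 57.2 and 33.8 FPKM in Rx 1 to 3. Rx 1 lay just under Con 2, so the groups overlapped, while Rx was the higher member of each numbered pair. The log2 difference was 0.79 ± 0.28. MVD, the decarboxylase that ends the mevalonate steps, was at 11.2, 13.4 and 9.04 FPKM in Con and 14.1, 31.9 and 18 FPKM in Rx, a log2 difference of 0.81 ± 0.26. IDI1, the isomerase that makes dimethylallyl diphosphate, was at 28.6, 38 and 28.2 FPKM in Con and 39.6, 68.8 and 44.0 FPKM in Rx, a difference of 0.64. Neither gene had overlapping groups, and for both the Rx 2 value was highest. FDPS, farnesyl diphosphate synthase, went from 21.3, 25 and 18.3 FPKM to 26.7, 47.1 and 30.1 FPKM (log2 difference 0.63 ± 0.19).

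GGPS1, which makes the geranylgeranyl diphosphate used for protein prenylation, showed a smaller but tighter difference. It was at 2.79, 2.89 and 2.69 FPKM in Con and 3.57, 3.73 and 3.66 FPKM in Rx, and the 3 pairs differed by 0.27, 0.28 and 0.33 on the log2 scale. Here Rx 2 did not stand apart from the other Rx libraries. MVK, mevalonate kinase, was 0.33 ± 0.14 higher. PMVK, the kinase of the next step, was the exception of the list, with 10.8, 11.7 and 12.5 FPKM in Con against 11.7, 10.5 and 12.2 FPKM in Rx and a difference of -0.02.

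**Figure D1:**
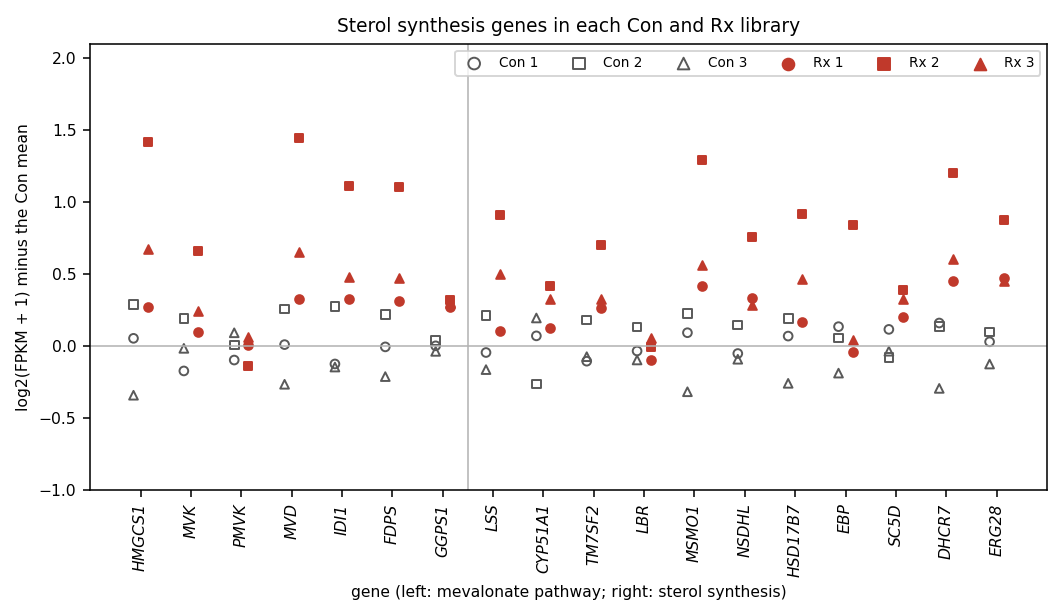
Level of 18 mevalonate pathway and sterol synthesis genes in each Con (open) and Rx (filled) library, as log2(FPKM + 1) minus the Con mean, with a circle, square and triangle for replicates 1, 2 and 3. The Rx squares (replicate 2) are the highest points for most genes, and the Rx circles (replicate 1) lie nearest to Con for many. PMVK and LBR differ little by mean. Some genes that are higher by mean have overlapping groups, among them HMGCS1, LSS, HSD17B7 and EBP.

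The enzymes that turn squalene into cholesterol followed the same direction. All 14 listed genes passed the filter, 13 were higher in Rx, 10 at an unadjusted p under 0.05 (background 2.42%) and 8 without overlap of the groups (background 4.86%). The median log2 difference was 0.44, and 0.30 without Rx 2, when 12 were higher and 8 had an unadjusted p under 0.05. The pair medians were 0.17, 0.66 and 0.39.

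ERG28 (ENSG00000133935, chr14:75649791-75661189, hg38), which tethers sterol C-4 demethylation enzymes in the endoplasmic reticulum, had the smallest p of all protein-coding genes. It was at 26.5, 27.9 and 23.7 FPKM in Con and 36.4, 48.5 and 35.8 FPKM in Rx, means of 26.0 ± 2.11 and 40.2 ± 7.14 (SD, n = 3). The lowest Rx library was above the highest Con library, with a log2 difference of 0.60 ± 0.11. NSDHL, a dehydrogenase of the same C-4 demethylation, was at 17.0, 19.7 and 16.5 FPKM in Con and 22.6, 30.6 and 21.8 FPKM in Rx (log2 difference 0.46). MSMO1, the oxidase of that step, went from 57.7, 63.5 and 43.2 FPKM to 72.7, 134 and 80.4 FPKM (0.76). These 3 genes had every Rx value above every Con value, while HSD17B7, the ketoreductase of the same step, was 0.52 ± 0.17 higher with Rx 1 (4.91 FPKM) below Con 2 (5 FPKM).

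DHCR7, the reductase that finishes cholesterol, was at 38.1, 37.5 and 27.5 FPKM in Con and 47.0, 79.4 and 52.3 FPKM in Rx, a log2 difference of 0.75 ± 0.20. LSS, which closes the sterol rings, was 0.51 higher and overlapped in 1 pair of libraries, Rx 1 at 16.0 and Con 2 at 17.3 FPKM. TM7SF2, a sterol C-14 reductase, was 0.43 higher and SC5D, the C-5 desaturase, 0.31 higher, both with separated groups. LBR, a nuclear envelope protein with the same C-14 reductase activity, differed by -0.02 and was the only listed gene that was lower. EBP, the sterol isomerase, was above all Con libraries in Rx 2 alone, at 19.3, 36.6 and 20.5 FPKM against 22, 20.8 and 17.4 FPKM in Con (0.28).

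Because these genes were higher together, the bases upstream of their RefSeq transcription starts (GRCh38.p14) were searched for short motifs. The CCAAT box, a site bound by the factor NF-Y, was sought as CCAAT on both strands in windows of 300 bases (250 before and 50 after the start), for the 8820 of 10751 tested genes with an entry. It was found in 36.7% of these windows, in 9 of 11 matched sterol synthesis genes (81.8%) and in 4 of 7 matched mevalonate genes (57.1%). The box was not particular to these lists. Among lists with smaller differences, 20 of 23 unfolded protein response genes (87.0%) and 13 of 24 proteasome genes (54.2%) had it. Lower shares were found in lysosomal genes (4 of 17, 23.5%) and in NF-kB and secreted factor genes (2 of 15, 13.3%). A match describes the letters only, and its use in these cells was not measured. The 250 bases upstream of 4 genes are shown because they carry the box and belong to the pathway: ERG28 (chr14:75660877-75661126, minus strand), NSDHL (chrX:152830813-152831062, plus strand), DHCR7 (chr11:71448394-71448643, minus strand) and HMGCS1 (chr5:43313413-43313662, minus strand). Capitals mark CCAAT or its reverse complement ATTGG, and in NSDHL a match on each strand overlaps.
ERG28: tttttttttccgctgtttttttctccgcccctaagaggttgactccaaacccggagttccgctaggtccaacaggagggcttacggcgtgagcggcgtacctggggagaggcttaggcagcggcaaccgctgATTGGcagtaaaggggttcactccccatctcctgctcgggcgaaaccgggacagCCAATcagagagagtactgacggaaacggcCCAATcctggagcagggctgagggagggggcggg
NSDHL: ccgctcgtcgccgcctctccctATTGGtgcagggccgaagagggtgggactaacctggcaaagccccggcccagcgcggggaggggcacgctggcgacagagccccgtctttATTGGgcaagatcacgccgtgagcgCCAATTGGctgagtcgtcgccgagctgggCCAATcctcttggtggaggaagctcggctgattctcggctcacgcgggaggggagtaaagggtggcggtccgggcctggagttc
DHCR7: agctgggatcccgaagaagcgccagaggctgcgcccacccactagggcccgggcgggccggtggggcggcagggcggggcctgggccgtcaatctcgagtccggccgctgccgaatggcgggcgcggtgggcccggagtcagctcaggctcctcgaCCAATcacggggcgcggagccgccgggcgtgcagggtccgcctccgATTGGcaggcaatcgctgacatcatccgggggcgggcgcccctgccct
HMGCS1: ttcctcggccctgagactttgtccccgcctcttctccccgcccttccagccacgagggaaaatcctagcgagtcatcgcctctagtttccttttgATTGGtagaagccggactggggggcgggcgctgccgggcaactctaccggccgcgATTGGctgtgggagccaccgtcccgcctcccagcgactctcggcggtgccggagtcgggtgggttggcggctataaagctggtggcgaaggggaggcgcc
ERG28 held 3 matches in these bases, NSDHL 5, DHCR7 2 and HMGCS1 2.

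Genes that control SREBP activity and sterol uptake were less uniform. Of 16 listed, 15 passed the filter, 13 were higher, 4 at an unadjusted p under 0.05 (background 2.42%), and the groups did not overlap for 4 higher genes (background 4.86%) and 1 lower gene (background 2.72%). The median was 0.23, and 0.17 without Rx 2, when 2 had an unadjusted p under 0.05. That count was also 2 without Con 3, 8 without Rx 1 and 6 with the replicate number as a block. INSIG1 (chr7:155297776-155310235), the retention protein that is itself an SREBP target, was at 31.9, 42.3 and 21.2 FPKM in Con and 39.8, 122 and 50.7 FPKM in Rx. Rx 2 stood far above the rest, and Rx 1 lay below Con 2. The log2 difference was 1.01 ± 0.39. STARD4, a carrier of cholesterol between membranes, was more even, at 10.8, 10.1 and 8.49 FPKM in Con and 13.8, 14.9 and 13.5 FPKM in Rx (0.49 ± 0.11), with separated groups.

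The factors SREBF1 and SREBF2 had smaller differences by value, which were not tested against those of the pathway. SREBF2 was at 39.4, 41.9 and 36.9 FPKM in Con and 38, 56.9 and 46.1 FPKM in Rx, with overlapping groups (0.23 ± 0.14). SREBF1 was at 21.6, 27.4 and 23.4 FPKM in Con and 23.5, 32.9 and 31.3 FPKM in Rx (0.26 ± 0.13). The sterol response element was sought as TCACNCCAC on both strands in the same 300-base windows. It was in 1.11% of the windows of tested genes, in 1 of 12 matched genes of SREBP control and in none of the matched sterol synthesis or mevalonate genes, and these letters are only a single form of the element. The match was in the promoter of SREBF2 (chr22:41832855-41833104, plus strand), in capitals, 133 bases before the start.
SREBF2: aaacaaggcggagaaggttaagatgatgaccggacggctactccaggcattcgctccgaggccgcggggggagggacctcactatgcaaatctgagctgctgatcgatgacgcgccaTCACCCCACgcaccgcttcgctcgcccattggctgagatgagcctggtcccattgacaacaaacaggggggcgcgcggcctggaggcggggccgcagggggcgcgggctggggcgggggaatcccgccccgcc
The level of SREBF2 itself overlapped between the groups.

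NPC1 and NPC2 pass cholesterol out of the lysosome. NPC1 was at 9.71, 6.83 and 6.31 FPKM in Con and 9.45, 13.1 and 8.81 FPKM in Rx, where Con 1 was above 2 of the Rx libraries (0.41 ± 0.21). NPC2 was at 28.1, 24.2 and 23.0 FPKM in Con and 31.5, 37.2 and 27.3 FPKM in Rx (0.33 ± 0.10), overlapping at Con 1 and Rx 3. TMEM97, a sterol-binding receptor of the endoplasmic reticulum, was 0.39 ± 0.20 higher. Genes of sterol efflux and storage were mixed, with 3 of 7 passing genes higher and a median of -0.01, which was 0.04 without Rx 2 with 5 higher. APOE, the lipid-carrying apolipoprotein, was the one with an unadjusted p under 0.05 and separated groups, at 2.54, 2.40 and 2.31 FPKM in Con and 2.66, 4.76 and 3.27 FPKM in Rx (0.39 ± 0.16). ABCA1, the exporter induced by sterol-sensing nuclear receptors, was at 1.99, 0.658 and 0.837 FPKM in Con and 1.84, 0.629 and 0.702 FPKM in Rx, where replicate 1 was the high library of both groups (-0.07 ± 0.32).

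Fatty acid synthesis genes were higher for 19 of 20 listed, all of which passed the filter. The median was 0.17, 8 had an unadjusted p under 0.05 (background 2.42%), and 5 had separated groups (background 4.86%). Without Rx 2 the median was 0.11 with 4 genes at an unadjusted p under 0.05, without Con 3 the count was also 4, and under TPM the median was 0.10 with 15 higher and 3 at that p. SCD, the stearoyl-CoA desaturase, was at 160, 136 and 73.1 FPKM in Con and 152, 375 and 196 FPKM in Rx. Rx 1 was below Con 1, so the log2 difference of 0.93 ± 0.37 came from pairs 2 and 3. FADS1, a desaturase of polyunsaturated fatty acids, was steadier at 12.6, 13.2 and 12.4 FPKM in Con and 14.9, 21.0 and 17.2 FPKM in Rx (0.43 ± 0.11). LPIN1, a phosphatidate phosphatase, was at 12.6, 14.4 and 12.6 FPKM in Con and 15.5, 23.2 and 20.4 FPKM in Rx (0.53 ± 0.14). ACLY, which supplies cytosolic acetyl-CoA, was 0.41 higher, from 105, 111 and 103 to 126, 163 and 139 FPKM. All of FADS1, LPIN1 and ACLY had separated groups.

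Over the 58 genes of the mevalonate, sterol synthesis, SREBP and fatty acid lists, 30 were higher (background 2.42%) and 0 lower (background 0.558%) at an unadjusted p under 0.05, and 22 had separated groups with Rx higher (background 4.86%). They held 16 of the 50 smallest p-values among the protein-coding genes that were higher in Rx. For 41 of the 58, numbered pair 2 had the largest difference.

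**Figure D2:**
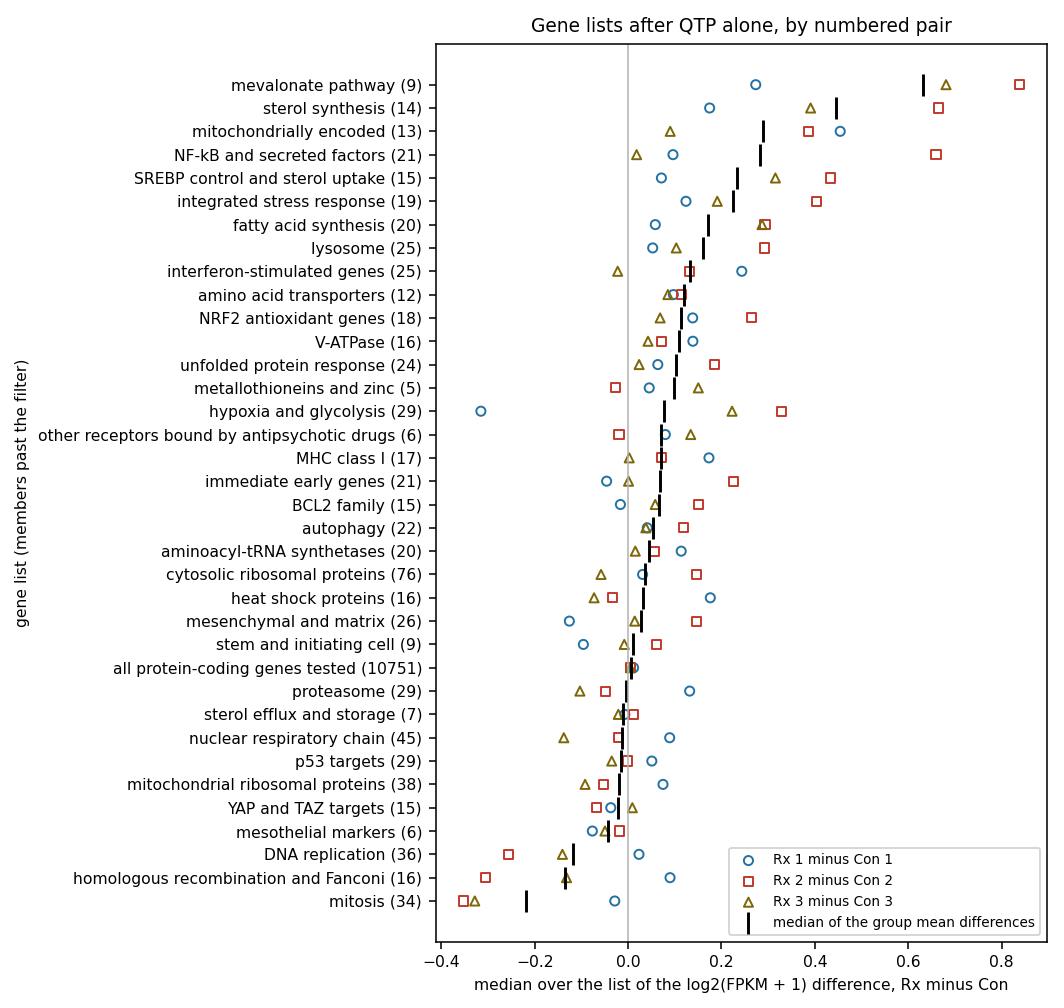
Median log2 difference of each gene list between Rx and Con libraries of the same number (Rx 1 minus Con 1, Rx 2 minus Con 2, Rx 3 minus Con 3). The mevalonate and sterol synthesis lists are above 0 in all 3 pairs, mitosis is at -0.03, -0.35 and -0.33, and hypoxia changes side between pair 1 (-0.32) and pair 2 (0.33).

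Beyond the lipid lists, the genes were named by the smallest p among those with separated groups, and the 12 higher ones had log2 differences of 0.30 to 1.08. ERG28, STARD4, GGPS1 and NSDHL were among them. IDH1, the cytosolic isocitrate dehydrogenase that makes NADPH, was at 18.8, 20.9 and 20.0 FPKM in Con and 24.2, 26.1 and 26.6 FPKM in Rx (0.35 ± 0.07). RDH11, a retinal reductase, was at 13.1, 13.6 and 12.9 FPKM in Con and 16.2, 20.9 and 17.5 FPKM in Rx (0.42). IDH1 differed by 0.31 to 0.39 in each pair, while RDH11 had its largest value in Rx 2. FOXF1, a forkhead factor of mesenchymal development, was at 11.8, 9.22 and 11 FPKM in Con and 14.7, 14.9 and 14 FPKM in Rx (0.42). CLDN1, a tight junction protein, was at 28.6, 25.7 and 28.6 FPKM in Con and 32.9, 36.6 and 34.4 FPKM in Rx (0.32). PRXL2A, a peroxiredoxin-like protein, was at 3.20, 2.75 and 2.90 FPKM in Con and 3.65, 5.01 and 4.21 FPKM in Rx (0.41). EN2, a homeobox gene, was low, at 0.774, 1.02 and 0.844 FPKM in Con and 1.52, 1.52 and 1.28 FPKM in Rx, from 38 to 96 reads per library (0.38). CXCL2 and XBP1 complete the 12 and are described with their lists.

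The 12 lower genes with the smallest p had smaller differences, from -0.56 to -0.17. TDP1, a phosphodiesterase that repairs topoisomerase-linked DNA ends, was at 5.49, 5.63 and 5.48 FPKM in Con and 4.83, 4.77 and 4.61 FPKM in Rx (-0.19 ± 0.06). SDHA, the flavoprotein of succinate dehydrogenase, was at 24.1, 27.9 and 26.4 FPKM in Con and 22, 23.2 and 22.6 FPKM in Rx (-0.20 ± 0.07). FRMD6, an upstream regulator of the Hippo pathway, was at 32.7, 29.8 and 34.4 FPKM in Con and 29.3, 23.1 and 27.4 FPKM in Rx (-0.27). In these genes the highest Rx library lay below the lowest Con library, by a narrow margin in FRMD6 (29.3 against 29.8 FPKM). SMCO4 had the largest difference of the 12, from 2.30, 1.71 and 1.36 FPKM to 0.882, 1.17 and 0.602 FPKM (-0.56), on only 11 to 47 reads per library. NLRX1, a mitochondrial NLR-family protein, was 0.21 log2 units lower (-0.21), and METAP1D, the mitochondrial methionine aminopeptidase, differed by -0.25. The other named genes were C18orf54 (-0.21), RALGPS2 (-0.23), LRRC40 (-0.27), ZFP90 (-0.19), ARHGAP17 (-0.17) and FNBP1L (-0.20).

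**Figure D3:**
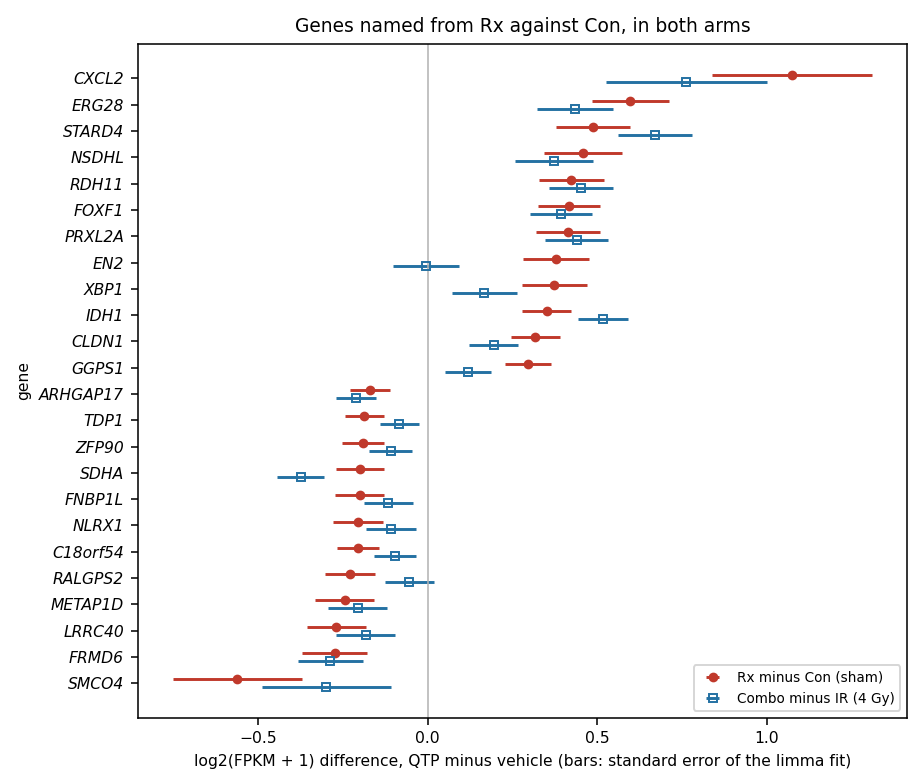
Log2 difference with its standard error for the 12 higher and 12 lower genes with the smallest p among those with separated Rx and Con groups, in sham cells (Rx minus Con) and in irradiated cells (Combo minus IR). In irradiated cells 11 of the 12 higher genes and 12 of the 12 lower genes lie on the same side of 0, and EN2 lies at 0.

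Lysosomal genes were slightly higher throughout. All 25 listed genes passed the filter and all 25 were higher by mean (background 53.2%), 7 at an unadjusted p under 0.05 (background 2.42%) and 6 with separated groups (background 4.86%). The median was only 0.16, with pair medians of 0.05, 0.29 and 0.10. Without Rx 2 it was 0.14 with 25 higher and 4 at an unadjusted p under 0.05, and under TPM it was 0.07 with 18 higher and 1 at that p. The count at an unadjusted p under 0.05 ran from 3 without Con 2 to 10 without Con 1 or without Rx 3. GLA, the alpha-galactosidase, was at 12.8, 12.7 and 13.3 FPKM in Con and 16.3, 16.4 and 14.8 FPKM in Rx (0.27 ± 0.07). NEU1, the lysosomal sialidase, was at 7.22, 5.31 and 6.96 FPKM in Con and 7.94, 9.23 and 9.18 FPKM in Rx (0.39 ± 0.11). GRN, the precursor of granulins, was at 202, 172 and 173 FPKM in Con and 210, 246 and 202 FPKM in Rx (0.27 ± 0.09). All 3 had separated groups, GRN by a narrow margin between Con 1 and Rx 3.

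Of the 16 proton pump (V-ATPase) genes, 15 were higher with a median of 0.11 and 3 at an unadjusted p under 0.05 (background 2.42%). Under TPM 9 were higher, with a median of 0.02 and 0 at that p. ATP6AP1, an accessory subunit, was at 25.2, 23.2 and 23.7 FPKM in Con and 27.6, 30.4 and 27.1 FPKM in Rx (0.23 ± 0.07). Among 22 of 24 autophagy genes that passed, 19 were higher with a median of 0.05, while under TPM 7 were, with a median of -0.03. SQSTM1, the cargo receptor p62, was at 61.5, 50 and 60.0 FPKM in Con and 68.1, 79.8 and 71.5 FPKM in Rx (0.35 ± 0.11), with separated groups. GABARAPL1, a membrane-attached autophagy protein, was 0.25 ± 0.08 higher. These were the only autophagy genes at an unadjusted p under 0.05 (2 of 22, background 2.42%). Under TPM there were 0, beside 63 higher of all 10751 genes. Of the 22, 4 had separated groups with Rx higher (background 4.86%).

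Targets of the integrated stress response were higher in all of the 19 genes (of 23 listed) that passed the filter, 7 at an unadjusted p under 0.05 (background 2.42%) and 9 with separated groups (background 4.86%). The median was 0.22, and 0.18 without Rx 2, when 17 were higher and 3 had an unadjusted p under 0.05. Without Con 2 that count was 4, and under TPM it was 3 with a median of 0.14. SESN2, a leucine sensor that restrains mTORC1, was at 18.7, 16.2 and 19.7 FPKM in Con and 22.7, 23.6 and 20.8 FPKM in Rx (0.29 ± 0.09). TRIB3, a pseudokinase, was at 18.6, 13.3 and 18.1 FPKM in Con and 20.9, 26.8 and 21.4 FPKM in Rx (0.45 ± 0.15). DDIT3, the factor CHOP, was at 12.6, 8.87 and 11 FPKM in Con and 16.1, 15.5 and 13.3 FPKM in Rx (0.44 ± 0.15). In all of these every Rx library was above every Con library, and Rx 3 was the lowest Rx library for SESN2 and DDIT3.

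GDF15, a secreted stress factor, was at 81.5, 87.1 and 92.2 FPKM in Con and 105, 170 and 118 FPKM in Rx (0.56 ± 0.20). CEBPB, a bZIP partner of these factors, was at 58.2, 48.8 and 45.6 FPKM in Con and 63.5, 83.1 and 58.4 FPKM in Rx (0.41 ± 0.13). PSAT1, an enzyme of serine synthesis, was at 52.5, 55.2 and 59.8 FPKM in Con and 77.5, 67.9 and 68.4 FPKM in Rx, and here Rx 1 was the highest library. ATF4, whose activity is set largely by translation, was at 149, 125 and 140 FPKM in Con and 142, 180 and 154 FPKM in Rx, with overlapping groups (0.19 ± 0.10). Of 12 amino acid transporter genes 10 were higher, with a median of 0.12 (7 and 0.05 under TPM), among them SLC7A5 (0.26 ± 0.09) and SLC1A5 (0.26 ± 0.08). The aminoacyl-tRNA synthetases were mixed, 13 of 20 higher with a median of 0.05, and 8 of 20 with -0.04 under TPM.

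Unfolded protein response genes showed little. Of 24, 21 were higher with a median of 0.10, 2 had an unadjusted p under 0.05 (background 2.42%), and under TPM 14 were higher with a median of 0.02. XBP1, a factor activated by splicing during that response, was at 14.2, 12.2 and 14.5 FPKM in Con and 17.4, 20.0 and 16.4 FPKM in Rx (0.37 ± 0.10). HSPA5, the chaperone BiP, was at 173, 174 and 179 FPKM in Con and 192, 208 and 188 FPKM in Rx, separated but by only 0.16 ± 0.07. Heat shock genes had no settled direction: 10 of 16 were higher with a median of 0.03, but 5 with -0.02 without Rx 2, 2 with -0.05 without Con 1 and 0 with -0.06 under TPM. Proteasome genes had 12 of 29 higher and a median of -0.00 (0 higher and -0.09 under TPM), and neither list held a gene at an unadjusted p under 0.05. Of 18 NRF2 antioxidant genes that passed, 16 were higher and 6 had an unadjusted p under 0.05 (background 2.42%). That count was 1 without Rx 2, 2 without Con 3, 3 without Con 2 and 1 under TPM, when 12 were higher. FTH1, ferritin heavy chain, was at 114, 105 and 110 FPKM in Con and 135, 188 and 122 FPKM in Rx (0.41 ± 0.13), and TXNRD1, thioredoxin reductase, was 0.23 ± 0.10 higher. FTH1 has near-identical copies that can share its reads, so its level is uncertain.

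**Figure D4:**
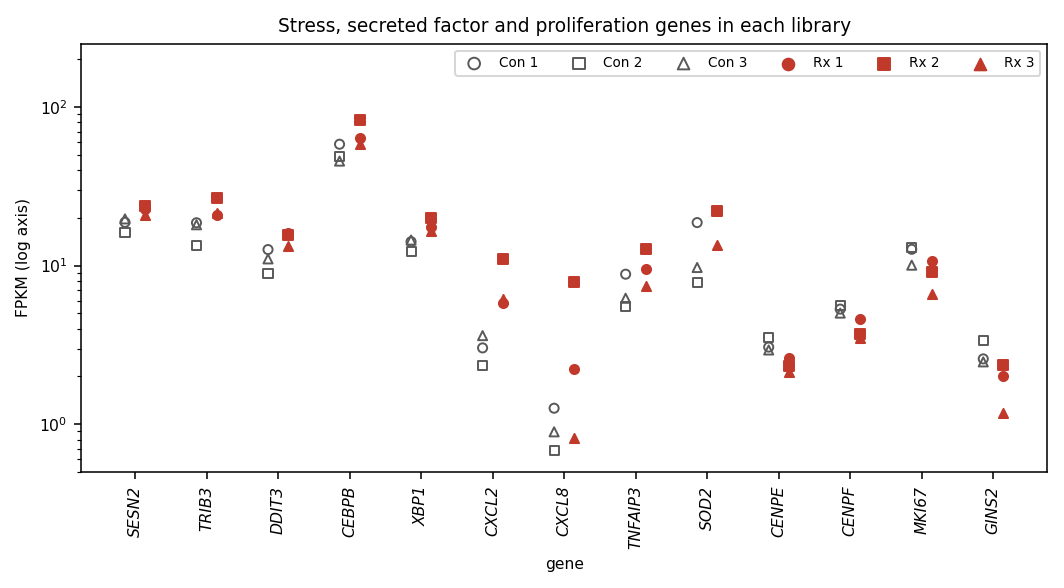
FPKM on a log axis of stress response, secreted factor and proliferation genes in each Con and Rx library. SESN2, TRIB3, DDIT3, CXCL2 and XBP1 have every Rx point above every Con point, CXCL8 and SOD2 overlap, and CENPE, CENPF and GINS2 have every Rx point below every Con point.

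Secreted factors and NF-kB targets were higher on average but differed widely between libraries. Of 28 listed, 21 passed and 20 were higher, with a median of 0.28 and pair medians of 0.10, 0.66 and 0.02. Only 2 had an unadjusted p under 0.05 (background 2.42%) and 1 had separated groups (background 4.86%), and without Rx 2 the median was 0.11 with 17 higher. With the replicate number as a block 4 had an unadjusted p under 0.05, without Con 1 it was 9, and without Rx 3 it was 10. Over all 10751 genes 317, 332 and 322 were higher at that p in these fits. CXCL2 (chr4:74097035-74099293), a neutrophil-attracting chemokine, was at 3.03, 2.35 and 3.62 FPKM in Con and 5.82, 10.9 and 6.16 FPKM in Rx, on 59 to 299 reads per library. All Rx libraries were above all Con libraries, and the log2 difference of 1.08 ± 0.24, a 2.11-fold difference on the log2(FPKM + 1) scale, was the largest of all protein-coding genes tested. CXCL8, a related chemokine, was at 1.26, 0.684 and 0.895 FPKM in Con and 2.23, 7.92 and 0.824 FPKM in Rx, so Rx 3 lay within Con (0.95 ± 0.45). TNFAIP3, a feedback inhibitor of NF-kB, was 0.47 ± 0.20 higher, with Con 1 (8.82 FPKM) above Rx 3 (7.42 FPKM). SOD2, the mitochondrial superoxide dismutase, was at 18.7, 7.80 and 9.73 FPKM in Con and 22.2, 22 and 13.4 FPKM in Rx, where Con 1 was above Rx 3 (0.68 ± 0.32). Interferon-stimulated genes had 18 of 25 higher with a median of 0.13 and 1 at an unadjusted p under 0.05 (background 2.42%), IFIT3 (0.48 ± 0.19). With the replicate number as a block 9 had such a p, against 0 under TPM, where 13 were higher with a median of 0.04. Their median was 0.05 without Con 2 and 0.06 without Rx 1, each with 0 at that p. Antigen presentation genes of class I had 14 of 17 higher with a median of 0.07, and under TPM 7 of 17 with -0.01. None had separated groups (background 4.86% higher and 2.72% lower).

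Mitotic genes were lower by mean in every one of the 34 (of 36 listed) that passed the filter, against a background of 46.8%. The size was modest, with a median of -0.22, and pair 1 showed almost none of it (-0.03, against -0.35 and -0.33 in pairs 2 and 3). At an unadjusted p under 0.05, 4 were lower (background 0.558%), and 12 were with the replicate number as a block, beside 101 of all genes. The groups did not overlap for 2 genes (background 2.72%). The list depended on single libraries: its median was -0.07 without Rx 3, with 25 lower and 0 at an unadjusted p under 0.05, and -0.13 without Con 2, with 33 lower and 0 at that p. Without Rx 1 it was -0.34 with 14 at an unadjusted p under 0.05, without Con 3 it was -0.32 with 12, and without Rx 2 it was -0.23 with 1. Over all genes 99, 78 and 69 were lower at that p in these fits.

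CENPE, a kinetochore motor, was at 3.06, 3.5 and 2.94 FPKM in Con and 2.62, 2.32 and 2.15 FPKM in Rx (-0.31 ± 0.11). CENPF, another kinetochore protein, was at 5.32, 5.63 and 5.02 FPKM in Con and 4.62, 3.68 and 3.5 FPKM in Rx (-0.36 ± 0.14). Both had every Rx library below every Con library. ASPM, a spindle pole protein, was at 3.90, 4.18 and 3.63 FPKM in Con and 3.67, 2.48 and 2.75 FPKM in Rx (-0.32 ± 0.13). DLGAP5, a spindle assembly factor, was at 9.48, 11 and 7.71 FPKM in Con and 8.76, 6.64 and 4.97 FPKM in Rx (-0.43 ± 0.18). For both, Rx 1 stood within the Con values. MKI67, the proliferation marker Ki-67, was at 12.7, 13.1 and 10.1 FPKM in Con and 10.7, 9.12 and 6.62 FPKM in Rx (-0.41 ± 0.21), overlapping at Con 3 and Rx 1. TOP2A, topoisomerase II alpha, was at 28.9, 33.1 and 23.4 FPKM in Con and 27.1, 23.2 and 17.0 FPKM in Rx (-0.34 ± 0.18). In bulk RNA such values cannot tell fewer dividing cells from less of each transcript per cell.

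The cell cycle homology region (CHR) of mitotic promoters was sought as TTTGAA on both strands in the same 300-base windows. It was in 9.24% of the windows of tested genes and in 20 of 28 matched mitotic genes (71.4%), and CCAAT was in 22 of the 28 (78.6%). The 250 bases upstream of 3 genes are shown as examples of that arrangement: ASPM (chr1:197146670-197146919, minus strand), DLGAP5 (chr14:55191586-55191835, minus strand) and MKI67 (chr10:128126424-128126673, minus strand). Capitals mark TTTGAA or its reverse complement TTCAAA.
ASPM: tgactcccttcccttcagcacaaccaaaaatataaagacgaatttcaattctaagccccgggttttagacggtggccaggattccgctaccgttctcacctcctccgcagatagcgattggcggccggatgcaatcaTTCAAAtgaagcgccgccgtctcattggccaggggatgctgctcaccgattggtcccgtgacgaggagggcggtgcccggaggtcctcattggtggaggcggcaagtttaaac
DLGAP5: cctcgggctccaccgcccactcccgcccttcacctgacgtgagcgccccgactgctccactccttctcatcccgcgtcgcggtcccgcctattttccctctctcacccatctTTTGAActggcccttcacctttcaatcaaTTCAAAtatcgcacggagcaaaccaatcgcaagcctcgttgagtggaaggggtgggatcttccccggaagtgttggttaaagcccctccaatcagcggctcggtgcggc
MKI67: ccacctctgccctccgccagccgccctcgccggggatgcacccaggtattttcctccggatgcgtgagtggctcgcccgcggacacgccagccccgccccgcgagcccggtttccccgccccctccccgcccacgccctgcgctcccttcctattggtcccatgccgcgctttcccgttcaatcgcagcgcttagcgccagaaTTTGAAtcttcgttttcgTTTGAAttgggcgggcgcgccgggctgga
ASPM held 1 match in these bases, and DLGAP5 and MKI67 held 2 each.

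DNA replication genes leaned the same way, with 33 of 36 lower (background 46.8%), a median of -0.12, 2 at an unadjusted p under 0.05 (background 0.558%) and 3 with separated groups (background 2.72%). Their median was -0.04 without Rx 3 and -0.02 without Con 2, when 21 were lower. GINS2, a subunit of the replicative helicase, was at 2.58, 3.35 and 2.47 FPKM in Con and 2.00, 2.37 and 1.17 FPKM in Rx (-0.43 ± 0.16). Homologous recombination genes had 4 of 16 higher and a median of -0.13 with none at an unadjusted p under 0.05. That median was -0.05 without Rx 3, -0.06 without Con 2, -0.20 without Con 3 and -0.21 without Rx 1, the last with 3 lower at that p, and -0.25 under TPM. Targets of p53 showed no lean, 13 of 29 higher with a median of -0.02, and 5 of 29 with -0.11 under TPM. CDKN1A, the cell cycle inhibitor p21, was at 134, 150 and 157 FPKM in Con and 157, 181 and 165 FPKM in Rx (0.19 ± 0.11), and MDM2, the ubiquitin ligase of p53, differed by -0.02. Genes of the BCL2 family had 10 of 15 higher and a median of 0.07, but 6 and -0.02 under TPM, 7 and -0.01 without Con 3, and a median of 0.01 without Rx 2.

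Hypoxia and glycolysis genes varied more between libraries than between groups. Of 29 that passed, 27 were higher by mean, but the median was 0.08, with pair medians of -0.32, 0.33 and 0.22 and none at an unadjusted p under 0.05. Without Con 1 all 29 were higher with a median of 0.32, without Con 3 only 1 was, with a median of -0.12, and without Rx 2 it was 9, with a median of -0.05. Under TPM it was 14, with -0.01. PGK1, phosphoglycerate kinase, was at 230, 149 and 91.2 FPKM in Con and 165, 202 and 110 FPKM in Rx. LDHA, lactate dehydrogenase A, was at 209, 154 and 86.9 FPKM in Con and 165, 194 and 108 FPKM in Rx. In both genes Con 1 was the highest of the 6 libraries and Con 3 the lowest, so all Rx values lay between Con values.

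Cytosolic ribosomal protein genes had no settled direction. With a median of 0.04, 65 of 76 were higher, but without Rx 2 it was 23 with -0.02 and under TPM 5 with -0.05, and 0 had an unadjusted p under 0.05 in each case. Their near-identical processed copies make each value uncertain. Nuclear respiratory chain genes (16 of 45 higher, median -0.01) and mitochondrial ribosomal protein genes (14 of 38 higher, median -0.02) had no gene higher at an unadjusted p under 0.05. At that p 1 respiratory chain gene, SDHA, was lower (background 0.558%), and 0 of the mitochondrial ribosomal protein genes. Under TPM 3 of 45 and 6 of 38 were higher, and 8 and 4 were lower at that p, beside 279 of all 10751 genes. The 13 genes of the mitochondrial genome were all higher by mean, with a median of 0.29 and pair medians of 0.45, 0.39 and 0.09, beside the higher mitochondrial share of reads given above. That median was 0.20 without Con 1 or under TPM, 0.43 without Con 3 and 0.04 with quantile scaling. Of the 13 genes, 1 had separated groups, with Rx higher (background 4.86%).

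DRD4 was the only dopamine receptor gene that passed the filter, at 3.36, 4.74 and 4.24 FPKM in Con and 4.45, 5.39 and 3.22 FPKM in Rx on 71 to 145 reads (0.06 ± 0.18). DRD1 had at most 2 reads in a library, and DRD2, DRD3 and DRD5 had 0 reads in all 6, which allows up to 3 reads per library. MSLN, mesothelin, a mesothelial surface marker, was at 29.2, 43.4 and 42.1 FPKM in Con and 24.4, 53.7 and 46.4 FPKM in Rx (0.06). CD44, a hyaluronan receptor often used as a stem-like marker, was at 48.5, 39.6 and 37.1 FPKM in Con and 45.4, 47.3 and 38.7 FPKM in Rx (0.07). The summed level of the 16 mesothelial markers was 1057 to 1332 FPKM in Con and 969 to 1276 FPKM in Rx, nearly all of it from the keratins KRT8 and KRT18, and 6 of the 16 passed the filter. WT1, a mesothelial transcription factor, averaged 0.955 FPKM over the 12 libraries, and PDPN, podoplanin, was listed at 0 in all of them. Markers of blood, endothelial and stromal cells summed to 14.9 to 15.3 FPKM in Con and 15 to 16.2 FPKM in Rx, and 13 of those 16 had means under 0.1 FPKM.

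In irradiated cells the same compound was compared with vehicle in Combo and IR, which share no library with Rx and Con. No gene passed an adjusted p of 0.05 there in the same limma fit, and at an unadjusted p under 0.05, 571 were higher (5.31%) and 1331 lower (12.4%), with 4820 higher (44.8%) and 5931 lower (55.2%) by mean. These counts moved with the libraries, since 814 genes passed an adjusted p of 0.05 without IR 1. IR 3 (18.6) and Combo 3 (-17.1) lay at the ends of the first principal component of the 12 libraries, and without them 400 genes rather than 1902 had an unadjusted p under 0.05. The 2 comparisons had the same direction for 5533 genes (51.5%), with a Pearson correlation of 0.226 across genes, which are not independent. That share depended on the processing, as it moved in 16 alternative settings and held in 9. Of the 260 genes higher with QTP alone at an unadjusted p under 0.05, 191 (73.5%) were also higher in irradiated cells and 95 (36.5%) had an unadjusted p under 0.05 there. Of the 60 lower genes, 51 (85%) were also lower and 19 (31.7%) had such a p. Both comparisons took the spread of each gene from the same fit over the 12 libraries. A gene with a low estimate of spread therefore tends to a smaller p in both. The counts of genes with such a p in both comparisons are thus not independent repeats.

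The sterol genes had mostly the same direction in irradiated cells, with 8 of 9 mevalonate genes and 13 of 14 sterol synthesis genes higher. The median difference in irradiated cells was 0.75 for the mevalonate list and 0.46 for sterol synthesis, against 0.63 and 0.44 in sham cells. Without IR 3 and Combo 3 these were 0.66 and 0.45. STARD4 differed by 0.67 ± 0.11, DHCR7 by 1.10 ± 0.20, HMGCS1 by 1.19 ± 0.28, ERG28 by 0.43 ± 0.11 and IDH1 by 0.52 ± 0.07. SREBF2 was 0.45 ± 0.14 higher there, while its difference in sham cells had overlapping groups. None of the 58 lipid genes had an unadjusted p under 0.05 for the difference between the arms, beside 733 of all 10751 genes. The standard error of that difference was wide for some of them, 0.55 for INSIG1 and 0.40 for HMGCS1. The count therefore does not show that the arms responded equally. GGPS1 differed by 0.12 ± 0.07 and NPC2 by 0.02 ± 0.10 in irradiated cells.

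The integrated stress response list had a median of 0.19 (0.22 in sham cells), and NF-kB targets 0.32 (0.28), whereas lysosomal genes had 0.05 (0.16). Mitotic genes had a median of -0.30 (-0.22), although CENPE differed by only -0.04 and MKI67 by -0.07. Cytosolic ribosomal protein genes were lower in all 76 with a median of -0.42, against 0.04 in sham cells, and for 48 of them the difference between the arms had an unadjusted p under 0.05. Without IR 3 and Combo 3 their median was -0.20, that of NF-kB targets 0.20 and that of mitotic genes -0.25. EN2, higher with QTP alone, differed by -0.00 in irradiated cells. Across all genes tested, 0 passed an adjusted p of 0.05 for the difference between the arms and 733 had an unadjusted p under 0.05, EN2 among them.

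**Figure D5:**
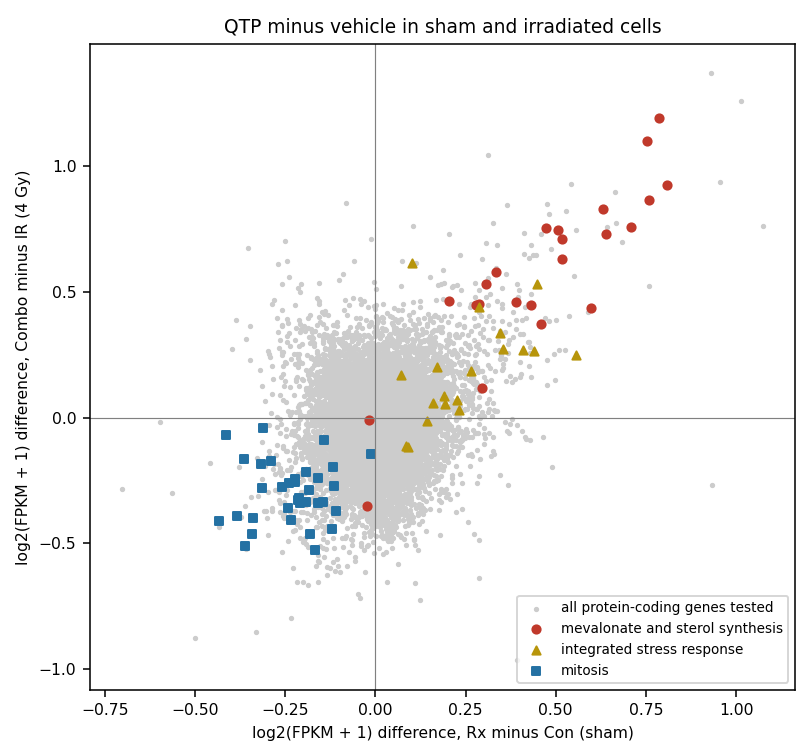
Log2 difference with QTP in sham cells (Rx minus Con, x axis) against that in irradiated cells (Combo minus IR, y axis) for 10751 protein-coding genes, with the mevalonate and sterol synthesis genes, the integrated stress response targets and the mitotic genes in colour. The sterol genes lie mostly in the upper right, mitotic genes lie left of 0 on the x axis, and the cloud of all genes has a correlation of 0.226.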

How the data were processed

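The authors deposited FPKM per gene for 12 libraries, with gene lengths, symbols, biotypes and hg38 coordinates (build per the submitters' processing notes). Per the labels' protocols, Trizol and RNeasy columns gave the RNA, and NEBNext Ultra RNA libraries were sequenced on a NovaSeq6000. Which aligner and counter were used, and whether by strand, is not given in the sources used here, so overlapping and antisense genes can share reads, and 175 symbols have more than 1 identifier. Multiplied by gene length, 100% of the FPKM above 0 fell on whole reads within 0.01 of a read, and those reads were recovered. Floors from reads cover counting error only. Replicates differed by more than sampling noise (chi-square per degree of freedom 7.09 to 39.9).

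Expression was log2(FPKM + 1) for the 13038 genes of any biotype with a mean of at least 1 FPKM. This scale understates differences of low genes. In R 4.3.3, limma 3.58.1 fitted the group means over all 12 libraries, using a trend of variance with level. Its moderated tests were two-sided and p-values were adjusted by Benjamini-Hochberg, with a threshold of 0.05. The fit was tested on simulated data. These held no shifts shared by many genes of a library, unlike the real data, so that test does not cover them. Only protein-coding genes are reported. Samples were grouped by their titles. Same-numbered Con and Rx libraries deviated together (correlations 0.269, 0.327 and 0.527), so the numbers were taken as pairs from the data. The labels do not state such pairs, and a fit with the number as a block was an alternative. Over all groups, same-numbered libraries ran from -0.256 (IR 3 and Combo 3) to 0.567 (Con 1 and IR 1). Differently numbered ones reached 0.333 (Con 1 and Combo 3), so the block over 12 libraries rests on an uneven pairing.

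The gene set, the 37 gene lists and the members named were chosen with earlier results of these data known. Genes were named as the 12 with the smallest p and separated groups in each direction, up to 3 per list by p, and a fixed set. Others, such as MVD, IDI1, MSMO1, LSS, TM7SF2, GDF15, PSAT1, DLGAP5, PGK1 and LDHA, were chosen after their values were seen. Some genes that the rule names are not reported here. Alternatives were another pseudocount, filter, scaling (TPM, median of ratios, quantile), variance trend, library weights, fits of fewer libraries or of protein-coding genes, the block, and each library left out. Added after seeing the data were limma voom on recovered reads, the block with only Con and Rx, TPM without mitochondrial genes, and a fit without IR 3 and Combo 3. Promoter sequences are from RefSeq (GRCh38.p14).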

Additional observations from a re-analysis of the deposited data

How the results depend on the processing

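No gene passed an adjusted p of 0.05 in Rx against Con, or for the difference between the arms, under any of the alternatives run. The 60 genes lower at an unadjusted p under 0.05 became 161 with no filter, 25 with a mean of at least 5 FPKM, 279 with TPM, 95 with TPM without mitochondrial genes, 132 with library quality weights (a fit that did not fully converge) and 97 with voom. The replicate block gave 101 lower genes, and 144 with only the Con and Rx libraries. Leaving out 1 library gave 37 (without Con 2) to 121 (without Rx 3), and 99 without Rx 1. The 260 higher genes became 63 with TPM, and 151 (without Rx 2) to 332 when 1 library was left out. The lysosome median was 0.07 with TPM. In Combo against IR, 0 genes passed an adjusted p of 0.05, against 3796 with quality weights, and 0 to 814 when 1 library was left out (814 without IR 1). The causes were not tested. None of the 24 named genes with separated groups changed sign. Because they were picked for that separation, a left-out library, another pseudocount or the block could not change it. The unchanged signs are therefore no added support. With 3 libraries a group and a median SE of 0.099 on the log2 scale, small differences were not detectable. Larger ones could be missed as well, since CXCL2, with the largest difference (1.08), had an adjusted p of 0.926 in limma.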

Other observations

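Transcription factor genes, as the deposited table annotates them, showed no lean with QTP alone. Of 893 that passed the filter, 440 were higher by mean, 14 were higher (2.42% over all genes) and 4 lower (0.558% over all genes) at an unadjusted p under 0.05 in the limma fit, and the median log2 difference was -0.00. TGIF1, a homeobox repressor in TGF-beta signalling, was at 4.46, 4.28 and 4.39 FPKM in Con and 4.99, 5.94 and 5.56 FPKM in Rx (0.27 ± 0.09), and 0.04 higher in irradiated cells. MXD1, a MAX partner, was at 2.52, 2.50 and 2.59 FPKM in Con and 2.92, 3.15 and 3.35 FPKM in Rx (0.23 ± 0.09), and differed by 0.53 in irradiated cells. HOXB9 was at 29.5, 25.5 and 24.5 FPKM in Con and 29.9, 31.2 and 30.8 FPKM in Rx (0.21 ± 0.08). NR3C1, the glucocorticoid receptor, was at 13.4, 12.1 and 12.5 FPKM in Con and 11.4, 10.9 and 11.6 FPKM in Rx (-0.15 ± 0.06). These genes had separated groups, and they were picked out once their values were known.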
